A study of Mus musculus with 4 samples.

Results

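The levels of 9 complement components and receptors were followed in mouse bone marrow-derived macrophages (BMDMs), the macrophages that grow out of bone marrow cells under M-CSF. The genes were C1qa, C1qb, C1qc, C3, C3ar1, C5ar1, Cfb, Cfp and C4b. They were chosen by their symbols, and each matched 1 of the 16375 genes with deposited values. Cells came from WT mice and from mice lacking the long non-coding RNA lncLy6c (LNCKO), which were made on a C57BL/6J background by injecting Cas9 mRNA and a guide RNA into zygotes, so the deletion is not limited to macrophages. In each genotype 1 culture received 500 µM butyrate, a short-chain fatty acid that gut bacteria produce, for 24 h and 1 did not, which gave 4 groups with 1 library each, named WT control and WT butyrate, and LNCKO control and LNCKO butyrate. With 1 library per group no difference could be set against the spread between replicates, no p-value was computed, and every value below describes these 4 libraries. The methods give an age for the purchased C57BL/6 mice but tie neither an age nor a number of mice to these libraries.

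Complement is a set of plasma and membrane proteins that tags microbes, immune complexes and dying cells. In the classical pathway the recognition molecule C1q binds its target. The protease C1r then activates the protease C1s, which cleaves C4 and C2. The alternative pathway uses C3 itself together with factor B and is prolonged by properdin. Both pathways converge on C3, whose fragments C3a and C3b act on a receptor and label surfaces for uptake, and on C5, whose fragment C5a is a strong attractant of myeloid cells. The liver makes most circulating complement, whereas C1q is made chiefly by macrophages and dendritic cells, and macrophages also secrete C3, factor B and properdin.

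The libraries held between 53363944 and 65521713 fragments. Levels were deposited as FPKM, here the number of fragments per kilobase of the whole gene span, introns included, per 1000000 fragments. Where 4 values are listed, the WT control comes first, then WT butyrate, then the LNCKO control and last LNCKO butyrate. Ratios are given with a 95% interval that covers counting error only, since each group has 1 library. The fragments carry no molecular identifiers, so duplicate copies may be counted as separate fragments. The intervals may therefore be too narrow even for counting error. Changes on the log2 scale were taken on FPKM + 0.1, and a gene counted as past the fold when that ratio exceeded 1.5-fold, among the 6809 genes whose mean FPKM reached 1. All 9 complement genes reached that mean. WT butyrate stood apart from the other libraries: the SD of the log2 changes across genes was 0.250 for butyrate in WT and 0.292 for LNCKO against WT under butyrate, and 0.170 and 0.216 for the 2 comparisons that do not hold this library.

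The identity of the samples could be checked only in part. The deleted lncLy6c had no row of that name and was not analysed here, and the LNCKO library names do not spell the condition. Ddx3y, a gene of the Y chromosome, was at 0.0446 and 0.0320 FPKM in WT control and WT butyrate and at 4.44 and 4.58 in LNCKO control and LNCKO butyrate, so genotype and sex cannot be told apart in these data. Macrophage markers were abundant in every library, with Csf1r between 38.3 and 46.5 FPKM and Fcgr1 between 88.2 and 109.3 FPKM. Cd163 was the only macrophage marker of 14 below a mean of 1 FPKM, and none was at 0.

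Markers of other marrow cells were present as well. Summed neutrophil markers made 7462 to 10636 fragments per 1000000, B cell markers 1198 to 1586, dendritic cell markers 729 to 833, T and NK cell markers 179 to 216 and mast cell and basophil markers 211 to 288. Erythroid markers made 6.70 and 7.57 fragments per 1000000 in the WT libraries and 23.5 and 64.5 in the LNCKO libraries. In RNA from a whole culture, fewer cells of a type and less RNA per cell cannot be told apart, and this holds for each result that follows.

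C1q was among the most abundant transcripts of these macrophages, but the order of the genes depended on the length used. On the scale of fragments per kilobase of exon per 1000000 fragments, and averaged over the 4 libraries, the order of the levels was C1qb at 691, C1qa at 532, C1qc at 353, Cfb at 262, C3ar1 at 259, Cfp at 177, C3 at 133, C5ar1 at 95.4 and C4b at 2.89. On the deposited gene span the order was C1qc at a mean of 208.8 FPKM, C1qa at 191.7, C1qb at 124.2, C3ar1 at 123.6, Cfb at 120.3, Cfp at 50.5, C3 at 28.3, C5ar1 at 19.2 and C4b at 1.06, so the C1q chains turned their order. The sources do not say whether exons or whole gene bodies were counted, and which order is the right one cannot be told. Per kilobase of exon, C1qb lay above 99.8% of the 16093 genes compared, C5ar1 still above 97.3% and C4b above 46.9%. Cfb and C3ar1 could not be ordered on that scale either: Cfb was at 242, 284, 266 and 255 and C3ar1 at 250.6, 300.8, 238 and 246 in the control and butyrate libraries of WT and then of LNCKO, so each was the higher of the pair in 2 libraries. All 9 genes together took 4882 fragments per 1000000 in WT control and 5850.3 in WT butyrate, against 4854 in LNCKO control and 4797 in LNCKO butyrate. WT butyrate was the highest library for 6 of the 9 genes, LNCKO control for C5ar1 and Cfp, and LNCKO butyrate for C4b.

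**Figure D1:**
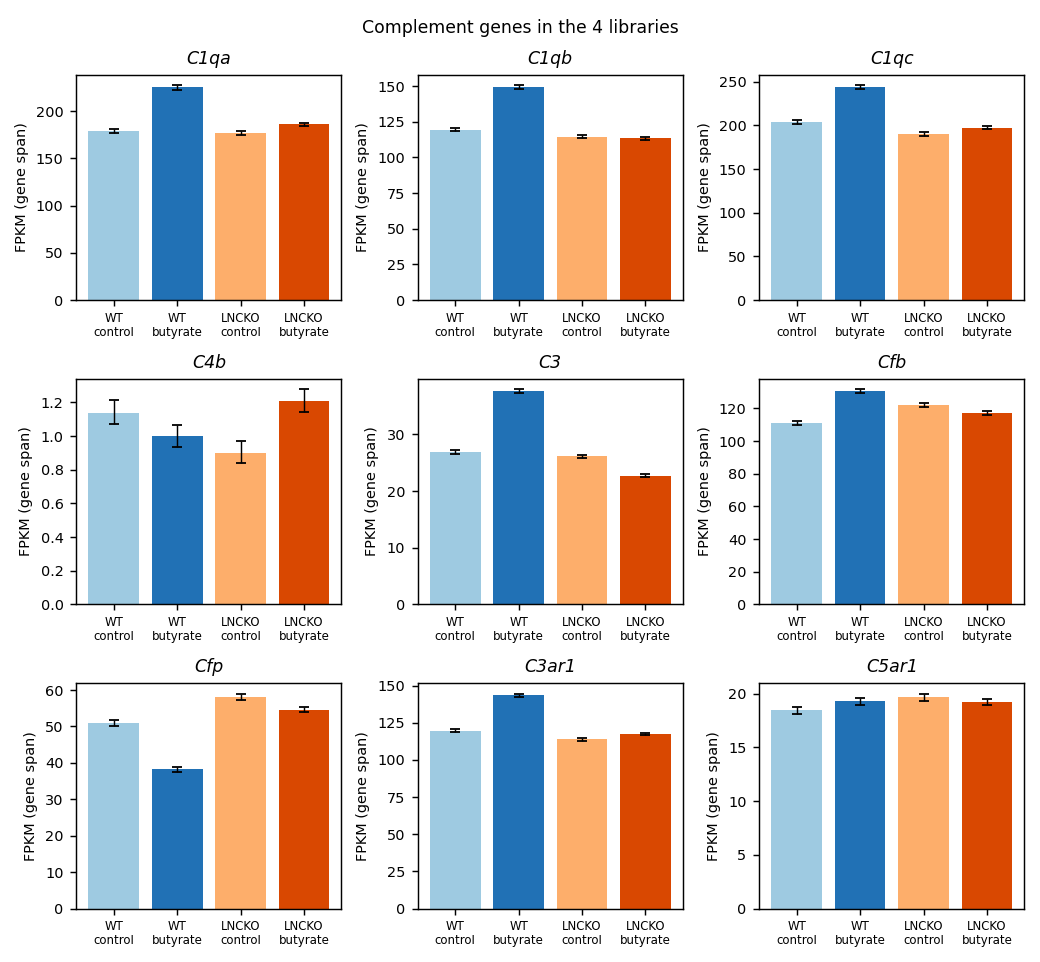
FPKM on the gene span (vertical axes, starting at 0) of the 9 complement genes in the 4 libraries, with bars for 1 library each and error bars for the 95% interval of counting error. WT butyrate has the tallest bar for C1qa, C1qb, C1qc, C3, Cfb and C3ar1 and the shortest for Cfp, while C5ar1 stays between 18.5 and 19.7 FPKM.

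The C1q subunits came first among the components. C1q is a bundle of A, B and C chains, which are encoded by 3 neighbouring genes on the minus strand of mouse chromosome 4, C1qb at chr4:136880129-136886187, C1qc at chr4:136889804-136893065 and C1qa at chr4:136895917-136898803 (GRCm38, protein-coding). C1qa was at 179.1 FPKM in WT control and 225.0 in WT butyrate, against 176.8 in LNCKO control and 185.9 in LNCKO butyrate. C1qb was at 119.4, 149.2, 114.6 and 113.5 FPKM in the same order. C1qc was at 203.9, 243.7, 190.2 and 197.6 FPKM. Each chain was thus highest in WT butyrate, and the other 3 libraries lay close to each other.

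Because the chains are needed together, the start regions of C1qb and C1qc are shown as the window from 250 bases before to 30 bases after the RefSeq start (GRCm38.p6, minus strand, 5′ to 3′). Capitals mark matches to GAGGAA, a core of the ETS motif, on either strand, and to TGTGGT, a core of the RUNX motif. These 2 motifs, and TTGCGNAA of C/EBP and TATAAA used further on, were chosen after the values were known.
C1qb, chr4:136886171-136886450: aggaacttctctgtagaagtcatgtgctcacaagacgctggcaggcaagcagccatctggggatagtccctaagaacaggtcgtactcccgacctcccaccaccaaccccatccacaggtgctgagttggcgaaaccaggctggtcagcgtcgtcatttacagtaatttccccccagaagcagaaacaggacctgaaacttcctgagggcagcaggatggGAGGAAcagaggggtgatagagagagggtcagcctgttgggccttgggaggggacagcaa
C1qc, chr4:136892885-136893164: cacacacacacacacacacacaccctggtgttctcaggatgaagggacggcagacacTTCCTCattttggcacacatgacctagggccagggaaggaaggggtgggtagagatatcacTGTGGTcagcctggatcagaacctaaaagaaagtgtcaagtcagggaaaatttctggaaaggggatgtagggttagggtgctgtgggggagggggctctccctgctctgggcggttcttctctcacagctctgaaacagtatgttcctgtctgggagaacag
C1qb held GAGGAA from 30 bases before its RefSeq start. C1qc held its reverse complement TTCCTC from 193 bases and TGTGGT from 132 bases before its RefSeq start. The C1qc gene span given above reaches chr4:136893065, upstream of that RefSeq start. TGTGGT thus lies inside this span and TTCCTC upstream of it. Searched on both strands, GAGGAA was present in 26.0% of 32851 mouse promoter windows of this length and TGTGGT in 15.6%, so such matches are common. RefSeq windows were matched for 6 of the 9 genes and for C1qb and C1qc among the C1q genes. The windows of C3ar1 and C5ar1, which are not printed, held TATAAA from 235 bases and TGTGGT from 234 bases before the start.

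With butyrate in WT, the ratio was 1.26 for C1qa (1.24 to 1.28), 1.25 for C1qb (1.23 to 1.27) and 1.20 for C1qc (1.18 to 1.21). In LNCKO it was 1.05 for C1qa (1.04 to 1.07), 0.991 for C1qb (0.977 to 1.005) and 1.04 for C1qc (1.02 to 1.05). None of these was past the fold. The WT changes of C1qa and C1qb, 0.33 and 0.32 on the log2 scale, lay above 95.6% and 95.4% of the tested genes, and that of C1qc, 0.26, above 93.0%.

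Between the genotypes without butyrate, the C1q chains differed little, with log2 differences of −0.02 for C1qa, −0.06 for C1qb and −0.10 for C1qc. Under butyrate LNCKO was lower than WT in all 3 chains, by ratios of 0.826 (0.814 to 0.838), 0.761 (0.751 to 0.770) and 0.811 (0.800 to 0.821) for C1qa, C1qb and C1qc. The balance between the chains moved less than their sum. C1qa made 27.1, 27.7, 28.0 and 28.7% of all C1q fragments in the control and butyrate libraries of WT and then of LNCKO, whereas C1q as a whole made 0.191, 0.235, 0.182 and 0.187% of the libraries. Per kilobase of exon, C1qb stood at 1.93, 2.02, 1.99 and 1.89 times C1qc in these libraries, and C1qa at 1.44, 1.52, 1.53 and 1.55 times C1qc. On the deposited gene span these ratios were below 1, between 0.574 and 0.612 for C1qb and between 0.879 and 0.941 for C1qa.

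C4b encodes the C4 that the classical pathway cleaves after C1q has bound (chr17:34728380-34743882, minus strand, GRCm38). It was the lowest of the 9 genes, near the limit of 1 FPKM, with 1.14 FPKM in WT control and 0.999 in WT butyrate, against 0.901 in LNCKO control and 1.21 in LNCKO butyrate, or 995, 917, 745 and 1226 fragments. The 4 libraries thus lay within 1.31-fold of each other, with LNCKO control lowest. The order of the libraries differed from that of C1q: with butyrate C4b was lower in WT, at a ratio of 0.878 (0.802 to 0.961), and higher in LNCKO, at 1.34 (1.22 to 1.47). Without butyrate, LNCKO was at 0.791 (0.719 to 0.871) of WT, and under butyrate at 1.21 (1.11 to 1.32). The LNCKO butyrate change of 0.39 on the log2 scale lay above 98.8% of tested genes. Reads of C4b can be shared with the near-identical C4a, which was not examined separately here, so the C4b values are uncertain.

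Markers of stromal cells, which are known sources of C4, were also lowest in LNCKO control. Without Fn1, which macrophages also express, 14 stromal markers summed to 363 fragments per 1000000 in WT control and 331 in WT butyrate, against 119 in LNCKO control and 231 with butyrate in LNCKO, and none was at 0. This exclusion was chosen after the values were seen. With Fn1 the sums were 581, 910, 297 and 436 fragments per 1000000. Without Fn1, 4 stromal markers had a mean of at least 1 FPKM. All 4 were past the fold higher with butyrate in LNCKO, where 0.529% of all tested genes were. In LNCKO against WT without butyrate 3 were past it lower, where 0.47% of all tested genes were. With butyrate in WT all 4 were lower, none past the fold, where 0.999% of all tested genes were past it lower. Under butyrate these markers differed from C4b, with 3 of the 4 lower in LNCKO than in WT. Past the fold lower were 2, against 1.29% of all tested genes, and the median of the 4 was −0.49. Col1a1, a fibrillar collagen, was at 5.14, 4.04, 1.20 and 2.31 FPKM. The part of stromal cells in the C4b values was not tested.

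C3 is the central component, and its level differed most among the 9 genes. It lies at chr17:57203970-57228136 on the minus strand (GRCm38). C3 was at 26.9 FPKM in WT control and 37.6 in WT butyrate, against 26.1 in LNCKO control and 22.7 in LNCKO butyrate. The 2 control libraries were nearly level, and the butyrate libraries lay on opposite sides of them. With butyrate the ratio was 1.40 (1.38 to 1.42) in WT and 0.870 (0.857 to 0.883) in LNCKO. On the log2 scale the changes were 0.48 and −0.20, the first above 98.0% of the tested genes and the second above 4.66%. The difference between the genotypes' butyrate changes, 0.68 on the log2 scale, ranked 76 from the highest of 6809 genes and was not tested.

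Without butyrate, C3 in LNCKO was at 0.971 (0.957 to 0.986) of WT. Under butyrate it was at 0.604 (0.596 to 0.612), so WT held 1.66 times the C3 of LNCKO. In the 4 comparisons this was the single value of the 9 genes past 1.5-fold.

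The window around the C3 start is shown because C3 spanned the widest range, 1.65-fold, over the libraries. Capitals mark TTGCGAAA, a match to the C/EBP core TTGCGNAA, and TATAAA, a match to the letters of the TATA motif. The sequence is GRCm38.p6 from RefSeq, minus strand, 5′ to 3′.
C3, chr17:57228107-57228386: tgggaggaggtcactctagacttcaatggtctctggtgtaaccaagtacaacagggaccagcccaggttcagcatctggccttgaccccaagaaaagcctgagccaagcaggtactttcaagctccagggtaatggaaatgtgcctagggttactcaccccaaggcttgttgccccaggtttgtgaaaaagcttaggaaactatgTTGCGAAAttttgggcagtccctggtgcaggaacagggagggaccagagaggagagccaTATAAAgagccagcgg
The C/EBP core lay from 45 bases before the start, and TATAAA began at base 15 of the annotated transcript, counted from 1 at the RefSeq start. Either strand of TTGCGNAA occurred in 0.758% of the 32851 windows and TATAAA in 13.1%. The other 5 complement windows held no TTGCGNAA, which says only that these letters are not in those windows.

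The summed levels of neutrophil and of macrophage markers were, like C3 and C1q, highest in WT butyrate. The 15 neutrophil markers summed to 8527 fragments per 1000000 in WT control and 10636 in WT butyrate, against 7830 in LNCKO control and 7462 in LNCKO butyrate. With butyrate 12 of the 15 were higher in WT and 5 of 15 in LNCKO, and under butyrate 12 of 15 were lower in LNCKO than in WT. Past the fold higher with butyrate in WT were 3, against 1.35% of all tested genes. Past it lower in LNCKO under butyrate were 4, against 1.29% of all tested genes. The medians of the 15 markers were 0.31, −0.04, −0.18 and −0.44 on the log2 scale for butyrate in WT, butyrate in LNCKO, and LNCKO against WT without and under butyrate. Mmp8, a neutrophil collagenase, was at 60.9, 135.3, 60.8 and 60.6 FPKM, and Elane, a granule protease, at 173.7, 278.3, 190.3 and 185.5 FPKM. Other granule genes of the list went the other way in WT, with Ngp at 407.1, 318.8, 359.9 and 332.3 FPKM and Camp at 50.3, 36.7, 44.2 and 45.9.

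The 14 macrophage markers summed to 29569, 36194, 26588 and 25074 fragments per 1000000, again highest in WT butyrate. With butyrate in WT 8 of the 13 tested markers were higher and 5 lower, none past the fold. Their medians were 0.12, 0.06, −0.02 and −0.08. Lyz2, the lysozyme of myeloid cells, made much of this sum, with 1972, 2871, 1609 and 870 FPKM. Fcgr1, the receptor CD64, was at 95.1, 109.3, 88.2 and 97.1 FPKM, and Csf1r, the M-CSF receptor, at 46.55, 46.53, 40.8 and 38.3 FPKM. The part of neutrophils, or of the number or state of macrophages, in the C3 and C1q values was not tested.

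**Figure D2:**
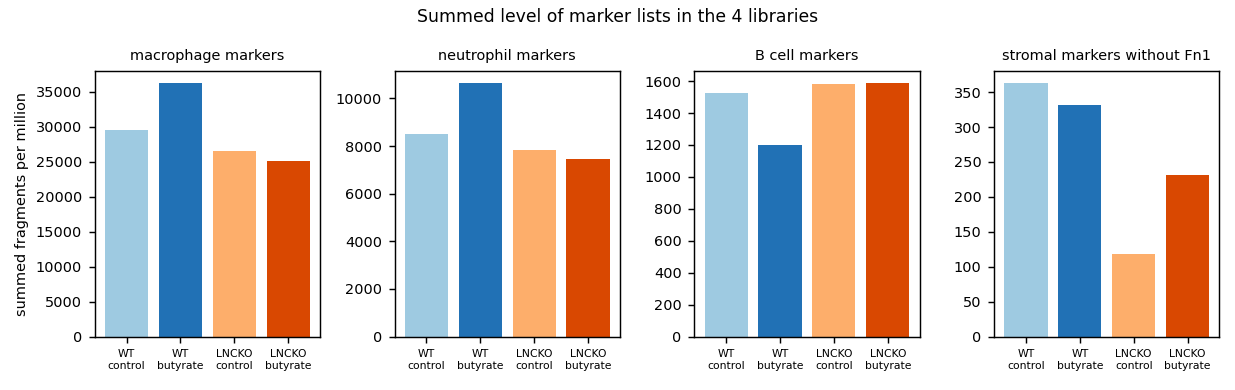
Summed fragments per 1000000 (vertical axes, starting at 0) of 4 lists of marker genes in the 4 libraries, 1 bar per library. Macrophage and neutrophil markers are highest in WT butyrate and B cell markers lowest there, while stromal markers without Fn1 are lowest in LNCKO control.

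The genes whose pattern over the 4 libraries lay nearest to that of C3 were Ear2, Selenon, Lcn2, Dpp7 and Retnlg, among 2544 genes with a mean of at least 5 FPKM. The root mean square difference of their centred log2 levels from C3 ran from 0.0676 for Ear2 to 0.0896 for Retnlg. Lcn2, the iron-sequestering lipocalin of neutrophils and stimulated macrophages, was at 110.0, 147.8, 92.3 and 88.0 FPKM. With 4 libraries, such nearness is a description of shared values only, and the libraries' totals are common to all genes.

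Factor B, encoded by Cfb (chr17:34856374-34862518, minus strand, GRCm38), supplies the protease of the alternative C3 convertase. Cfb was at 111.2 FPKM in WT control and 130.4 in WT butyrate, against 122.2 in LNCKO control and 117.3 in LNCKO butyrate. It was thus highest in WT butyrate, yet WT control was the lowest library, and the 4 lay within 1.17-fold. With butyrate the ratio was 1.17 (1.16 to 1.19) in WT and 0.959 (0.947 to 0.972) in LNCKO, and LNCKO was at 1.10 (1.08 to 1.11) of WT without butyrate and at 0.899 (0.887 to 0.910) under it. The exons of Cfb overlap those of the read-through gene Gm20547 on the same strand, which has no row in the table, so fragments of both loci may not be separated.

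Properdin, encoded by Cfp on the X chromosome (chrX:20925454-20931555, minus strand, GRCm38), stabilises the alternative C3 convertase. Unlike C3, it was lowest in WT butyrate. Cfp was at 50.9 FPKM in WT control and 38.2 in WT butyrate, against 58.2 in LNCKO control and 54.6 in LNCKO butyrate. Both LNCKO libraries were above both WT libraries. With butyrate the ratio was 0.750 (0.734 to 0.767) in WT and 0.939 (0.921 to 0.957) in LNCKO. LNCKO was at 1.14 (1.12 to 1.17) of WT without butyrate and at 1.43 (1.40 to 1.46) under it, below the fold in both. The butyrate change in WT, −0.41 on the log2 scale, lay above 3.14% of tested genes, and the genotype difference under butyrate, 0.51, above 97.8%.

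Cfp was the only other of the 9 genes whose level spanned more than 1.5-fold, at 1.52-fold, and its start window is shown for that reason (GRCm38.p6 from RefSeq, minus strand, 5′ to 3′). Capitals mark TTCCTC, the reverse complement of the ETS core GAGGAA.
Cfp, chrX:20931526-20931805: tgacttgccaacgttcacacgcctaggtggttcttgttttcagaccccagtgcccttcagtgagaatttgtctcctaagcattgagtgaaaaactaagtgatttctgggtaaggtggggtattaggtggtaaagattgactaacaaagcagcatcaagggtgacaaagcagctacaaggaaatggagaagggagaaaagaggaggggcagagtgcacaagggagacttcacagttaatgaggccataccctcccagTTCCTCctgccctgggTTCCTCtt
Both matches lay within the annotated transcript, from bases 7 and 23 counted from 1 at the RefSeq start. The share of all windows with this core was given above.

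Nearest to Cfp in pattern were Cdkn1a, Niban3, Id3, Haspin and Ms4a3, at root mean square differences between 0.0176 and 0.0459 on the log2 scale. Cdkn1a, the cell cycle inhibitor p21, was at 19.6, 14.7, 22.7 and 21.7 FPKM. B cell markers also were lowest in WT butyrate. Their sums were 1524, 1198, 1579 and 1586 fragments per 1000000. Of 6 tested markers none was higher with butyrate in WT, with a median of −0.40. Past the fold lower were 2, against 0.999% of all tested genes. In the other comparisons the B cell median was 0.00 for butyrate in LNCKO and 0.02 and 0.43 for LNCKO against WT without and under butyrate. The recombinase gene Rag1 was at 9.27, 2.15, 10.1 and 9.11 FPKM. Whether other cells had a part in the Cfp values was not tested.

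Of the receptors, C3ar1, which binds C3a (chr6:122847138-122856161, minus strand, GRCm38), moved like C1q. C3ar1 was at 119.6 FPKM in WT control and 143.5 in WT butyrate, against 113.7 in LNCKO control and 117.5 in LNCKO butyrate. Only WT butyrate stood out, at a ratio of 1.20 (1.19 to 1.21) to its control against 1.03 (1.02 to 1.04) in LNCKO. LNCKO was at 0.951 (0.940 to 0.962) of WT without butyrate and at 0.819 (0.810 to 0.827) under it.

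C5ar1, the receptor of C5a (chr7:16246743-16259540, minus strand, GRCm38), was the most even of the 9 genes. C5ar1 was at 18.5, 19.3, 19.7 and 19.2 FPKM in the control and butyrate libraries of WT and then of LNCKO, a span of 1.07-fold. Under butyrate the 2 genotypes could not be told apart even by counting error, with a ratio of 0.996 (0.974 to 1.02). Per kilobase of exon, C3ar1 exceeded C5ar1 by 2.73, 3.13, 2.43 and 2.57 times, and C3 stood at 0.504, 0.588, 0.515 and 0.434 times its receptor C3ar1. On the deposited gene span C3ar1 stood at 5.78 to 7.44 times C5ar1, and C3 at 0.193 to 0.262 times C3ar1.

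The first question of the design was what butyrate did in each genotype. In WT 7 of the 9 complement genes were higher and 2, Cfp and C4b, lower with butyrate, with a median log2 change of 0.26 against −0.05 over all tested genes. No complement gene was past 1.5-fold, where 1.35% of tested genes were past it higher and 0.999% lower. In LNCKO butyrate went with higher levels of 4 genes and lower levels of 5, at a median of −0.01 against −0.02 over all tested genes. Again none was past the fold, against a background of 0.529% higher and 0.22% lower. Of the 9 genes, C1qa, C1qb and C3 lay above and Cfp below the central 90% of tested genes in WT, and C4b above and C3 below it in LNCKO.

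The second question was how the genotypes differed. Without butyrate 3 of the 9 genes were higher and 6 lower in LNCKO, with a median of −0.04 against 0.02 over all tested genes. None was past the fold, as 0.617% of tested genes were on the higher and 0.47% on the lower side, and only C4b lay outside the central 90%. Under butyrate 2 genes, Cfp and C4b, were higher and 7 lower in LNCKO, with a median of −0.28 against 0.06. C3 was past the fold lower, where 1.29% of tested genes were, and no complement gene was past it higher, where 1.56% were. Cfp above and C1qb, C1qc and C3 below lay outside the central 90%. With another scaling of the libraries, by their median ratio, the split of all genes past the fold was 114 higher to 52 lower for butyrate in WT instead of 92 to 68, and 79 to 106 for LNCKO against WT under butyrate instead of 106 to 88.

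The comparisons share libraries. The WT butyrate library enters both the butyrate comparison in WT and the genotype comparison under butyrate, so a value peculiar to it appears in both with opposite sign, and the opposite medians of 0.26 and −0.28 are not separate observations.

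**Figure D3:**
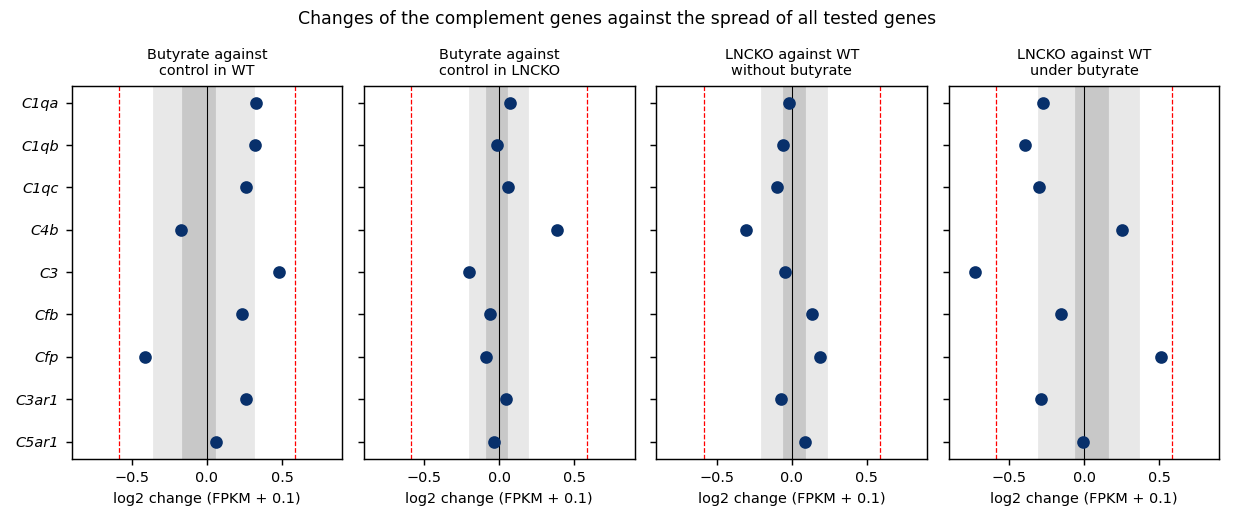
Log2 change of FPKM + 0.1 (horizontal axes) of the 9 complement genes, 1 point per gene, in the 4 comparisons; the dark and light bands hold the central 50 and 90% of 6809 tested genes and the dashed lines mark 1.5-fold. C3 in LNCKO against WT under butyrate, at −0.72, is the only point past a dashed line.

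**Figure D4:**
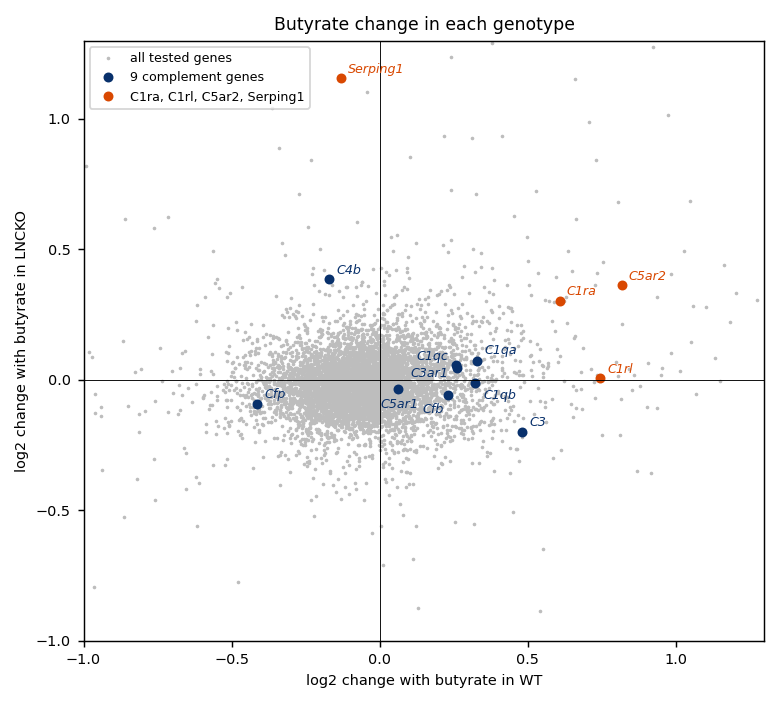
Log2 change with butyrate in WT (horizontal axis) and in LNCKO (vertical axis) for all tested genes in grey, the 9 complement genes in blue and 4 further complement genes, chosen after their values were seen, in orange; 36 of 6809 genes lie outside the axes. C3 lies at 0.48 and −0.20, C4b at −0.17 and 0.39, and Cfp at −0.41 and −0.09.

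The rest of the complement system was described from a list of 48 further genes, of which 36 were listed in the table and 13 had a mean of at least 1 FPKM. Of these 13, 3 were past 1.5-fold higher with butyrate in WT, where 1.35% of all tested genes were. None was past it in LNCKO, against 0.529% higher and 0.22% lower, or between the genotypes without butyrate, against 0.617% and 0.47%. Under butyrate 1 was past it lower in LNCKO, where 1.29% of all tested genes were. Medians of the 13 genes were −0.09 and −0.03 on the log2 scale for butyrate in WT and in LNCKO. For LNCKO against WT they were −0.04 without and −0.00 under butyrate. The 3 genes past the fold in WT were C1ra, C1rl and C5ar2. Serping1, with a mean just under 1 FPKM, is not among the 13 and is described below.

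C1ra, the protease C1r that C1q activates, was at 1.44, 2.25, 1.34 and 1.67 FPKM in the control and butyrate libraries of WT and then of LNCKO. Butyrate ratios were 1.56 (1.44 to 1.70) in WT and 1.25 (1.14 to 1.37) in LNCKO, so C1ra was higher with butyrate in both genotypes. C1rl, a C1r-like protease, was at 1.37, 2.36, 1.23 and 1.24 FPKM, with a ratio of 1.73 (1.61 to 1.85) in WT, and was the gene past the fold lower in LNCKO under butyrate, at 0.525 (0.491 to 0.560). C1s1, the protease C1s, had only 55, 166, 40 and 91 fragments and overlaps an antisense gene, so its reads are uncertain, and WT butyrate again held the most. The partner of C4 in the classical convertase, C2, had 601, 659, 544 and 937 fragments but overlaps Gm20547 and Zbtb12.

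C5ar2, the second C5a receptor, was at 2.57, 4.60, 2.46 and 3.19 FPKM, with butyrate ratios of 1.79 (1.68 to 1.91) in WT and 1.297 (1.21 to 1.39) in LNCKO. It thus spanned a wider range over the libraries than C5ar1, and a small nuclear RNA gene, Gm26473, overlaps it. Hc, which encodes C5 itself, had no fragment in 3 libraries, where a count of 0 allows up to 3 fragments, and 8 in LNCKO butyrate, and an antisense gene overlaps it. Expression of the ligand's gene was not detectable in these 3 libraries at this depth, while its receptors were measured in all 4.

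Complement receptor 3, which takes up iC3b-coated particles, is made of the chains encoded by Itgam and Itgb2. Itgam was at 21.5, 24.3, 20.2 and 20.8 FPKM, highest in WT butyrate, with a butyrate ratio of 1.132 (1.12 to 1.14) in WT, and LNCKO was at 0.856 (0.848 to 0.865) of WT under butyrate. Itgb2 was at 15.6, 14.5, 15.2 and 14.4 FPKM. Itgam overlaps Gm49368 on the same strand. C1qbp, a binding protein of C1q, was at 9.18, 12.1, 9.43 and 9.39 FPKM and was highest in WT butyrate. Vsig4, the iC3b receptor of tissue macrophages, had 14, 0, 11 and 0 fragments. For the counts of 0, the counting interval reached 0.00135 FPKM in WT butyrate and 0.00122 in LNCKO butyrate. Cr2, mainly a receptor of B cells, was at 0.0853, 0.167, 0.0892 and 0.0994 FPKM.

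Among 12 listed regulators, Cd55 alone had a mean of at least 1 FPKM, at 1.81, 1.59, 1.74 and 1.62, and an antisense gene overlaps it. Serping1, the C1 inhibitor, was at 1.12, 1.02, 0.496 and 1.23 FPKM, just under that mean, with a ratio of 2.48 (2.15 to 2.86) for butyrate in LNCKO and of 0.441 (0.381 to 0.510) for LNCKO against WT without butyrate. Like C4b and the stromal markers, it was lowest in LNCKO control and higher with butyrate in LNCKO. Under butyrate LNCKO was at 1.21 (1.08 to 1.34) of WT for Serping1, whereas the stromal markers without Fn1 were lower in LNCKO, and their part was not tested. Cd59a, at 0.113, 0.0898, 0.0786 and 0.0421 FPKM, and Clu, at 0.134, 0.158, 0.143 and 0.126 FPKM, were low throughout.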

How the data were processed

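RNA sequencing of BMDMs was analysed in 4 groups with 1 library each. The authors deposited FPKM values per gene and library, and the table had 0 other value columns. Per the labels, the submitters' processing notes name STAR 2.5.0c, Picard 1.126, bedtools 2.17.0, HTSeq 0.6.0, DESeq2 3.0 and the builds GRCm38 and mm10. The methods give TRIzol extraction and MGISEQ-2000 sequencing, whereas the labels give other protocols, and whether exons or whole gene bodies were counted is not stated. If whole gene bodies were counted, the levels per kilobase of exon are too high.

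The total of each library was searched as the number that turns FPKM into whole fragments, with the gene spans of GENCODE M21. Of 16375 genes, 16342 matched that annotation and 16093, or 98.48%, were whole within 0.02 fragments in all 4 libraries, all 9 complement genes included. Of the rows, 262 had no symbol and 57 shared one. A change is the log2 ratio of 2 values of FPKM + 0.1, which understates changes of low genes. The named genes were the 9 complement genes, further complement genes past 1.5-fold or fixed by name, marker genes whose list moved with a complement gene, the genes studied by the authors, and the 5 genes nearest in pattern to a gene that spanned 1.5-fold. The members and lists, namely other complement genes, macrophage, neutrophil, B cell, T and NK cell, dendritic cell, mast cell and basophil, erythroid and stromal markers, and interferon response and acute phase genes, were chosen with earlier results of these data known. Intervals are exact Poisson for levels and exact Clopper-Pearson for ratios. Alternatives were other pseudocounts, filters, fold limits, a scaling by median ratio and values per kilobase of exon. On simulated data 4 of 4 totals were recovered over 16342 genes, and for butyrate in WT 100 of 100 genes raised 2-fold, 95 of 100 lowered 2-fold and 0 of 6605 unchanged genes were past 1.5-fold. The simulated counts varied by counting error only, so they give no rate of false calls between cultures or animals. Scripts ran in Python 3.11.15 with pandas 2.3.3, scipy 1.17.1, numpy 2.4.6 and, for figures, matplotlib 3.10.9.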

Additional observations from a re-analysis of the deposited data

Results flagged for a closer look

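Of the 9 complement genes, 5 differed in direction between the genotypes with butyrate, the single WT pair moving one way and the single LNCKO pair the other. None of these differences was tested, since each genotype has 1 library per treatment. The share of all tested genes that differed in direction is not given, so 5 of 9 has no background to be read against. Butyrate changes of either sign were common over all tested genes. Their lower and upper quartiles on the log2 scale were −0.16 and 0.06 in WT, and −0.08 and 0.05 in LNCKO. The butyrate change in WT minus that in LNCKO was 0.68 on the log2 scale for C3, 0.34 for C1qb, 0.29 for Cfb, 0.097 for C5ar1 and −0.56 for C4b. For C1qb the direction in LNCKO rests on a change of −0.01, which became 0.01 when libraries were scaled by their median ratio. The smallest of these differences, that of C5ar1, came from changes of 0.06 in WT and −0.03 in LNCKO.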

How the results depend on the processing

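No paired analysis was possible because each group has 1 library, and for the same reason no library could be left out. Scaling the libraries by their median ratio moved the median change of the 9 complement genes from 0.26 to 0.32 for butyrate in WT, from −0.28 to −0.33 for LNCKO against WT under butyrate, and that of the difference between the genotypes' butyrate changes from 0.22 to 0.25. With a limit of 2-fold, 0 complement genes in place of 1 were past it lower in LNCKO under butyrate. Of 180 alternative values of single complement genes, 152 stayed within their counting interval, 28 moved and 0 called values reversed. Of the signs, 1 differed, that of C1qb in LNCKO, which is also the median of the 9 there. The largest move was 0.24 on the log2 scale with a pseudocount of 1. Much of this was fixed in advance. Exon length is common to the 4 libraries, so values per kilobase of exon could move only through the added 0.1 FPKM. The sign of a single comparison could turn only with the median-ratio scaling. Of 208 list medians, 188 stayed and 20 moved; the sign turned in 4 per kilobase of exon and in 3 with the median-ratio scaling. Per kilobase of exon these were −0.24 to 0.06 for stromal markers with butyrate in WT, 0.10 to −0.06 for dendritic cell markers and −0.10 to 0.60 for complement regulators with butyrate in LNCKO, and −0.41 to 0.35 for classical and lectin components under butyrate, and the T and NK cell median under butyrate moved from 0.15 to 0.53. These moves come from other genes reaching a mean of 1 on the larger exon scale, not from the same genes reversing. On the gene span the regulators had 1 tested gene and the dendritic cell list 2. With the scaling they were 0.02 to −0.00 for B cell markers without butyrate, and 0.03 to −0.03 for complement regulators and 0.01 to −0.05 for acute phase genes under butyrate. Leaving Fn1 out of the stromal list, chosen after seeing the data, took its median from −1.46 to −1.73 for LNCKO against WT without butyrate and from −0.59 to −0.49 under it.

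Counts of all genes past the fold, given as higher and lower for butyrate in WT, butyrate in LNCKO, LNCKO against WT without and under butyrate, were 92 and 68, 36 and 15, 42 and 32, and 106 and 88. They were 55 and 30, 20 and 9, 23 and 19, and 52 and 50 with a pseudocount of 1, and 237 and 200, 104 and 48, 98 and 109, and 240 and 209 per kilobase of exon. Without a filter on low values they were 404 and 264, 226 and 145, 237 and 247, and 328 and 377. A minimum mean of 0.1 FPKM gave 294 and 201, 148 and 84, 170 and 165, and 261 and 279, and a minimum of 5 gave 29 and 16, 10 and 4, 16 and 5, and 30 and 26. The number of genes tested differed per kilobase of exon and with each filter, so these counts have no common denominator. Past 2-fold they were 29 and 12, 13 and 6, 14 and 13, and 28 and 29. Low fragment counts widen the counting intervals of C4b, Serping1 and the genes below 1 FPKM, and no gene has a replicate.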

Other observations

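C3 and factor B are known as acute phase and interferon-responsive genes, and lists of both kinds were measured. The 12 acute phase and NF-kB genes summed to 2298 fragments per 1000000 in WT control and 3531 in WT butyrate, against 2373 in LNCKO control and 2705 in LNCKO butyrate. Of the 10 tested, 8 were higher with butyrate in WT. Past 1.5-fold higher were 2, Saa3 and Cxcl2, against 1.35% of all tested genes. The median of the 10 was 0.30 on the log2 scale. In the other comparisons the median was 0.11 for butyrate in LNCKO and 0.04 and 0.01 for LNCKO against WT without and under butyrate. Saa3, an acute phase protein of macrophages, was at 221, 461, 264 and 321 FPKM. The interferon response genes, 11 of 12 listed, summed to 9164, 10454, 8653 and 9926 fragments per 1000000. With butyrate 8 of 11 were higher in WT and 10 of 11 in LNCKO, none past the fold, with medians of 0.15 and 0.22, and the genotype medians were −0.08 and −0.04.

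Cd14, a marker of the macrophage list, was lower with butyrate in both genotypes, at 88.6, 59.98, 95.6 and 76.3 FPKM, unlike C1q and C3ar1. For the genes the study followed, Nr4a1 was at 0.840, 0.511, 1.62 and 1.23 FPKM and Zfp36 at 156, 130.3, 170.3 and 164 FPKM. Runx3 was at 2.85, 5.73, 0.849 and 1.16 FPKM, values that gave no whole fragments on its span, so no counting interval could be given. Medians of the remaining marker lists for butyrate in WT, butyrate in LNCKO, and LNCKO against WT without and under butyrate were −0.13, 0.19, 0.08 and 0.15 for T and NK cells, −0.21, 0.10, −0.12 and 0.20 for dendritic cells, 0.06, −0.03, 0.61 and 0.96 for mast cells and basophils, and 0.13, 1.48, 1.90 and 3.24 for erythroid cells, with 4, 2, 5 and 3 tested genes. The dendritic cell median for butyrate in LNCKO was −0.06 per kilobase of exon, where a different set of genes reached the mean of 1.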
